A study of Homo sapiens with 18 samples.

Results

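Cyclins and the cyclin-dependent kinases (CDKs) that they activate drive cells from one phase of division to the next. D-type cyclins answer to growth signals and activate CDK4 and CDK6, which start the inactivation of the RB protein and free E2F factors to switch on genes for DNA replication. E-type cyclins act with CDK2 at the start of DNA synthesis, cyclin A2 acts with CDK2 and CDK1 during synthesis and up to mitosis, and B-type cyclins with CDK1 carry cells into mitosis, after which the anaphase-promoting complex has cyclins A and B destroyed. The transcripts of cyclins A2, B1 and B2 and of CDK1 are periodic and peak late in the cycle, so their level in a culture also follows how many of its cells are in those phases.

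The genes described here are 3 D-type cyclins (CCND1, CCND2, CCND3), 2 E-type cyclins (CCNE1, CCNE2), cyclins A2, B1 and B2 (CCNA2, CCNB1, CCNB2) and the kinases CDK1 and CDK2. They were chosen by name from the cyclins and their CDKs, without CDK4 and CDK6, the kinases of the D-type cyclins. All 10 were found among the 39496 genes deposited and passed the filter on low counts, which kept 20144 genes. The bladder cancer lines T24 and UM-UC-3, established from human tumours (genotype given as WT), received the control siRNA siNC, siACAT1-1 or siACAT1-2 before bulk mRNA sequencing. Both siACAT1 siRNAs target ACAT1, the mitochondrial enzyme that joins and splits acetoacetyl-CoA. Each of the 6 groups had 3 libraries, which the labels call biological replicates. The time from transfection to RNA extraction is not given in the sources used here. Each group is 1 line under a transient knockdown, and in bulk RNA fewer cells in a cycle phase and less RNA per cell cannot be told apart.

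On GRCh38 the genes lie at chr11:69641087-69654474 (CCND1), chr12:4273772-4305350 (CCND2), chr6:41934933-42050357 (CCND3), chr19:29811898-29824308 (CCNE1), chr8:94879770-94896678 (CCNE2), chr4:121816444-121823933 (CCNA2), chr5:69167010-69178245 (CCNB1), chr15:59105078-59125045 (CCNB2), chr10:60778331-60794852 (CDK1) and chr12:55966769-55972784 (CDK2). CCND3, CCNE2 and CCNA2 are on the minus strand and the others on the plus strand.

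The question addressed by the comparisons is whether the cyclin and CDK transcripts differed when ACAT1 was depleted. ACAT1 itself was at 44.2 to 47.4 RPKM in UM-UC-3 siNC libraries and at 1.83 to 3.60 RPKM with either siRNA, and at 14.6 to 17.1 RPKM in T24 siNC libraries and at 0.671 to 1.46 RPKM with either siRNA. RPKM scale the reads of a gene by its exon length and by the total reads counted in the library, so levels can be compared between genes. Between 25163490 and 34417230 reads were counted per library. The cells were checked against marker genes: 6 of 16 matched urothelial markers in T24 and 3 of 16 in UM-UC-3 had a median of 1 RPKM or more, led by KRT18 and KRT8, while CDH1, ELF3, KRT5, UPK1B and UPK3A were below 0.1 RPKM in every library. All 5 endothelial markers and 5 of 6 leukocyte markers were below 0.1 RPKM throughout. The remaining leukocyte marker, CD68, had a median of 168 RPKM in UM-UC-3 and 36.6 RPKM in T24. Marker sums moved with the siRNA in UM-UC-3, where the urothelial sum was 166 to 210 RPKM with siNC and 130 to 155 RPKM with either siRNA, the stromal sum was 4.39 to 5.30 RPKM with siACAT1-2 against 3.07 to 3.56 RPKM with siNC, and the leukocyte sum was 168 to 216 RPKM with siACAT1-1 against 126 to 160.0 RPKM with siNC. In T24 the leukocyte sum in replicates 1, 2 and 3 was 15.7, 121 and 16.4 RPKM with siNC, 18.7, 154 and 21.2 RPKM with siACAT1-1 and 36.6, 169 and 41.6 RPKM with siACAT1-2, above siNC in every pair. The urothelial sum in T24 was 943, 425 and 941 RPKM with siNC, 734, 300.4 and 751 RPKM with siACAT1-1, below siNC in every pair, and 1077, 393 and 919 RPKM with siACAT1-2. T24 replicate 2 had the highest leukocyte sum and the lowest urothelial sum in each group. The endothelial sum was 0.160 RPKM or less in every library. The part of these cells or genes in the results was not tested. The T24 libraries of replicate 2 stood apart: their counts differed from the same groups' replicates 1 and 3 by a chi-square of 105 to 174 per degree of freedom, against 35.5 to 43.6 between replicates 1 and 3. In UM-UC-3 cells pairs with replicate 3 had 56.7 to 121, against 11.8 to 46.9 between replicates 1 and 2.

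Libraries with the same replicate number deviated together within a cell line. Each result is therefore given from 2 fits: the fit by group, and the fit that also holds a term for the replicate number within each cell line, called the replicate block below. Called means an adjusted p under 0.05 over all 20144 genes.

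The stretches upstream of the late-phase genes are shown because these 4 genes were called lower together in T24 cells with the replicate block. Transcription late in the cycle is known to use a cell cycle homology region (CHR), here searched as TTTGAA, together with CCAAT boxes, searched as CCAAT, both on either strand. The RefSeq promoter table (GRCh38.p14) matched 6 of the 10 genes by symbol: CCNA2, CCNB1, CCNB2, CDK1, CCND3 and CCNE1. The 250 bases before the start sites of CCNA2 (chr4:121823884-121824133, minus strand), CCNB1 (chr5:69166900-69167149, plus strand), CCNB2 (chr15:59104896-59105145, plus strand) and both start sites of CDK1 (chr10:60778081-60778330 and chr10:60778228-60778477, plus strand) read as follows, 5′ to 3′, with matches on either strand in capitals:
CCNA2: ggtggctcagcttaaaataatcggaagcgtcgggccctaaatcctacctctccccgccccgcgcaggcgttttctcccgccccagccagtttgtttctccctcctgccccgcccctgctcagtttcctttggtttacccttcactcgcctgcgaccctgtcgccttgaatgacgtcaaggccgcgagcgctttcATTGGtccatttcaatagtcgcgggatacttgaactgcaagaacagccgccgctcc
CCNB1: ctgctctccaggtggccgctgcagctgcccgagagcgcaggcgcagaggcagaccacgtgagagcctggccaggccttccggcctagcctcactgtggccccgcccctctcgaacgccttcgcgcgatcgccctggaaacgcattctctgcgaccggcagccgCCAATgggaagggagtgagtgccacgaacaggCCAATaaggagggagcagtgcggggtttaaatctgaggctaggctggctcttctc
CCNB2: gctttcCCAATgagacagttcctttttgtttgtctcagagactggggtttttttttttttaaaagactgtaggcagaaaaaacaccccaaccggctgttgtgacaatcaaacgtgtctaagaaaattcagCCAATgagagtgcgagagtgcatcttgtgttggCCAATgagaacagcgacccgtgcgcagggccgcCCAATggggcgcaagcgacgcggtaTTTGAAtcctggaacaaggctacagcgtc
CDK1, start 1: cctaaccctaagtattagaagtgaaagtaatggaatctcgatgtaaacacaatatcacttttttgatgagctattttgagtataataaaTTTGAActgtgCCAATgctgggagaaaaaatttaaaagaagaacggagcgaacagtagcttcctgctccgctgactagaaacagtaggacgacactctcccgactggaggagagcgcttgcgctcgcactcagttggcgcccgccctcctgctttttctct
CDK1, start 2: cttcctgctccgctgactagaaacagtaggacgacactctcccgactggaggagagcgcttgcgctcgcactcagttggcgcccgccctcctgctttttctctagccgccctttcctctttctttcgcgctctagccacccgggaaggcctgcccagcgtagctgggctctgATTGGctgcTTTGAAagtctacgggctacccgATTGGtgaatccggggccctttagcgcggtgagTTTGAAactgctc

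Every one of these stretches held CCAAT: 1 match for CCNA2, 2 for CCNB1, 4 for CCNB2, and 1 and 2 for the CDK1 starts. The letters TTTGAA were found for CCNB2, at position -29 from the start, and for CDK1, at position -161 of the first start and at positions -69 and -13 of the second. No match overlapped another. Of 35116 promoters in the table, 32.0% held CCAAT within 250 bases, 13.3% held TTTGAA, and 4.69% held both. The same stretch of CCNE1 held neither, and of the 3 start sites of CCND3, 2 held 1 CCAAT each and 0 held TTTGAA. Positions count from the RefSeq start sites. For CCNA2, CCNB1, CCNB2 and the second start of CDK1 these sites lie inside the genes as placed above. Their stretches therefore reach into those genes, and the TTTGAA matches of CCNB2 and of the second CDK1 start lie within the genes. So do the CCAAT matches of CCNB1 and of the second CDK1 start, and the CCAAT match of CCNB2 nearest to its start. These matches describe letters only. For the CHR no letters other than TTTGAA were searched, so a stretch without a match is not shown to lack a CHR. The motifs were chosen after the levels had been seen.

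**Figure D1:**
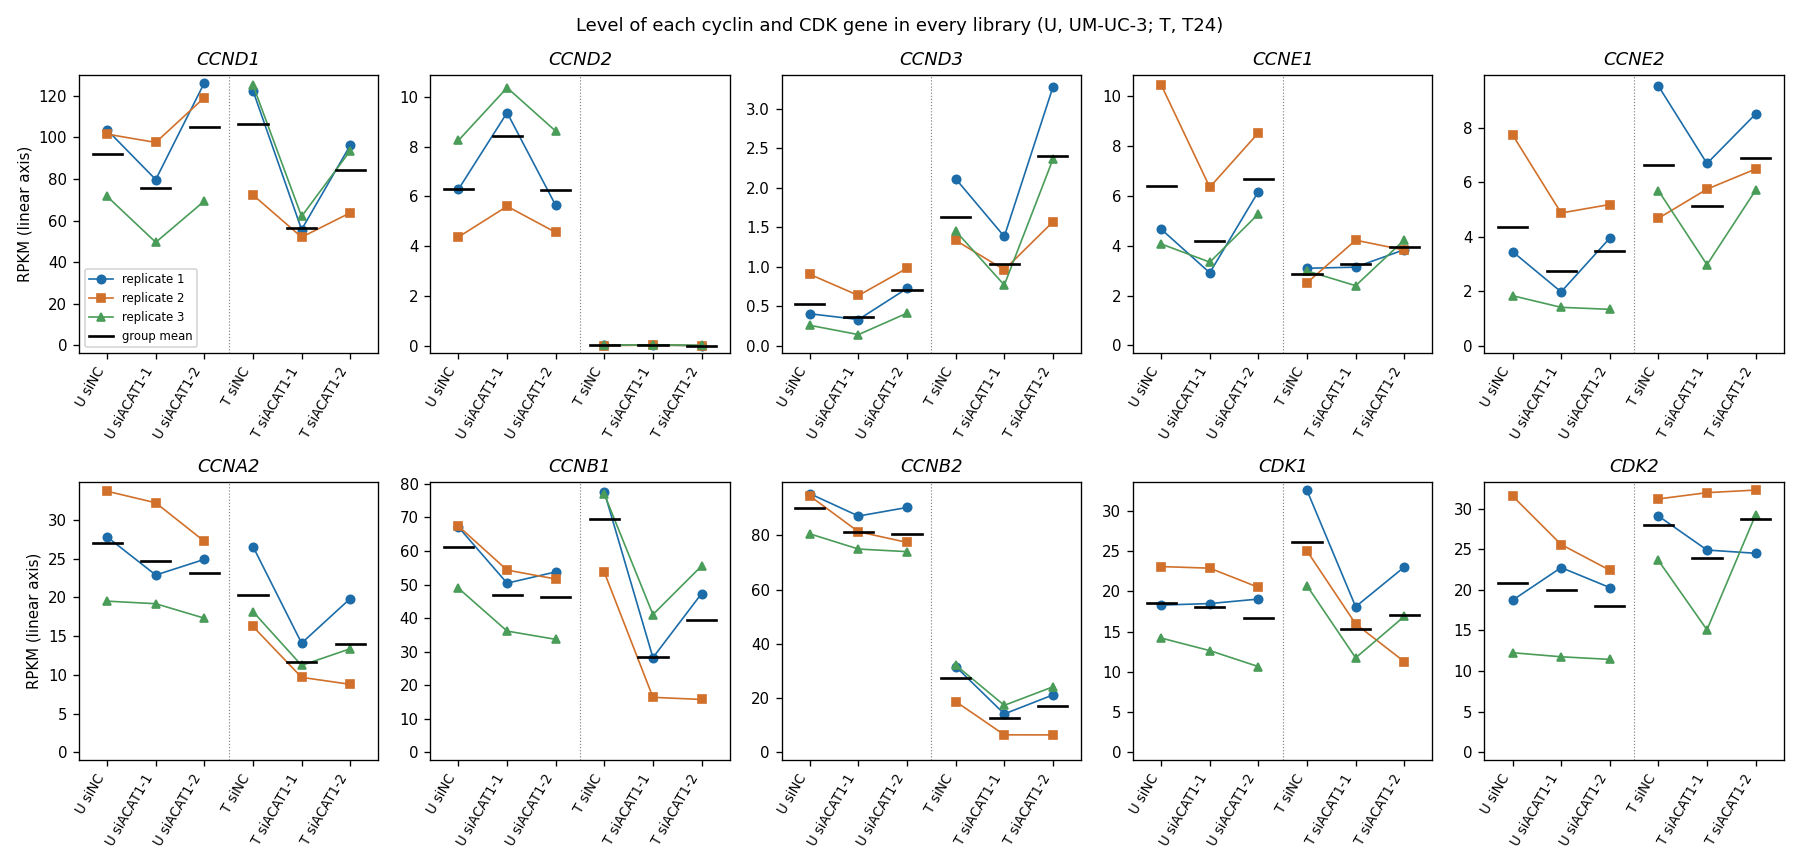
Level of the 10 genes in each library (RPKM, linear axes starting just below 0), with lines joining libraries of the same replicate number within a cell line and black bars for the group means of 3 libraries. In UM-UC-3 cells the lines of the 3 numbers stay apart for most genes, and CCND2 lies at the axis in T24 cells, at 0.0333 RPKM or less.

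In the mean of the 4 comparisons with siNC, the replicate block called the late-phase genes CCNA2, CCNB1, CCNB2 and CDK1 and the D-type cyclin CCND1 lower. CDK2, CCND2, CCND3, CCNE1 and CCNE2 were not called. By group none of the 10 genes was called. In UM-UC-3 cells neither fit called any of the 10 with either siRNA. Among the single comparisons with siNC, CCND1 was called only with siACAT1-1 in T24 cells, with the block. By edgeR's quasi-likelihood test 0 of the 10 genes were called by group in the mean of the 4 comparisons with siNC, where 0.223% of all genes tested were called. At an unadjusted p under 0.05 there were 2 (CCNB1 and CCNB2), against 10.9% of all genes, and DESeq2 also called 0. Without the T24 libraries of replicate 2 the fit by group called both, CCNB1 at -0.64 (adjusted p 0.0352) and CCNB2 at -0.46 (adjusted p 0.0170). With the replicate block 5 of 10 were called, all lower: CCNB1, CCNB2, CCNA2, CDK1 and CCND1. In that fit 12.4% of all genes were called and 6.46% were called lower. The median log2 fold change of the 10 genes was -0.32 with the block, against -0.00099 over all genes tested. CCNA2, CCNB1 and CCNB2 were below the siNC library of the same number in 12 of 12 pairs, and CCND1 and CDK1 in 10 of 12. Within a line both siRNAs were paired with the same siNC libraries, so these pairs are not independent. Neither these counts nor the pair counts below are given over all genes.

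In T24 cells with siACAT1-1, 0 of 10 genes were called by group, with 0.124% of all genes called, 5 of the 10 and 11.5% of all genes at an unadjusted p under 0.05, and 0 of the 10 called by DESeq2. With the block 6 were called, all lower (CCNB1, CCNB2, CCND1, CCNA2, CDK1 and CCND3), where 13.9% of all genes were called and 7.31% were called lower. With siACAT1-2 in T24 cells the group fit called 0 (0.268% of all genes; 0 of the 10 at an unadjusted p under 0.05; DESeq2 0), and the block called 4, all lower (CCNB1, CCNB2, CCNA2 and CDK1), where 8.48% of all genes were called and 3.93% were called lower. In UM-UC-3 cells 0 of 10 were called with siACAT1-1 by group (0.00993% of all genes) or with the block (3.06% of all genes), and 0 with siACAT1-2 by group (0.0546%) or with the block (1.36%). At an unadjusted p under 0.05 there were 0 genes by group with either siRNA (5.34% and 3.86% of all genes), and with the block 6 of 10 with siACAT1-1 (18.5% of all genes) and 2 of 10 with siACAT1-2 (13.4% of all genes). DESeq2 by group called 0 with either siRNA. Without the T24 libraries of replicate 2 the block in UM-UC-3 cells called CCND2 (0.44, adjusted p 0.0423), CCNE1 (-0.55, adjusted p 0.0463) and CCNE2 (-0.60, adjusted p 0.0470) with siACAT1-1 and CCNB1 (-0.43, adjusted p 0.0451) with siACAT1-2. The 4 comparisons share siNC libraries within each line.

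Whether the knockdown effect differed between the lines was tested directly as UM-UC-3 minus T24. By group 0 of 10 genes were called, as were 0% of all genes by edgeR, with 0 of the 10 and 517 of all genes at an unadjusted p under 0.05, and DESeq2 called 1 of all genes and 0 of the 10. With the block 0 of 10 were called, where 0.104% of all genes were. At an unadjusted p under 0.05 there were 6 of the 10 and 9.46% of all genes. The lowest adjusted p with the block was that of CCNB2, with a difference of 0.83 ± 0.18 (SE) on the log2 scale and an adjusted p of 0.0809. Without the T24 libraries of replicate 2 the block called CCNB2 at 0.61 (adjusted p 0.0373) and CCND1 at 0.65 (adjusted p 0.0469). With all libraries this test did not show a difference between the lines.

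**Figure D2:**
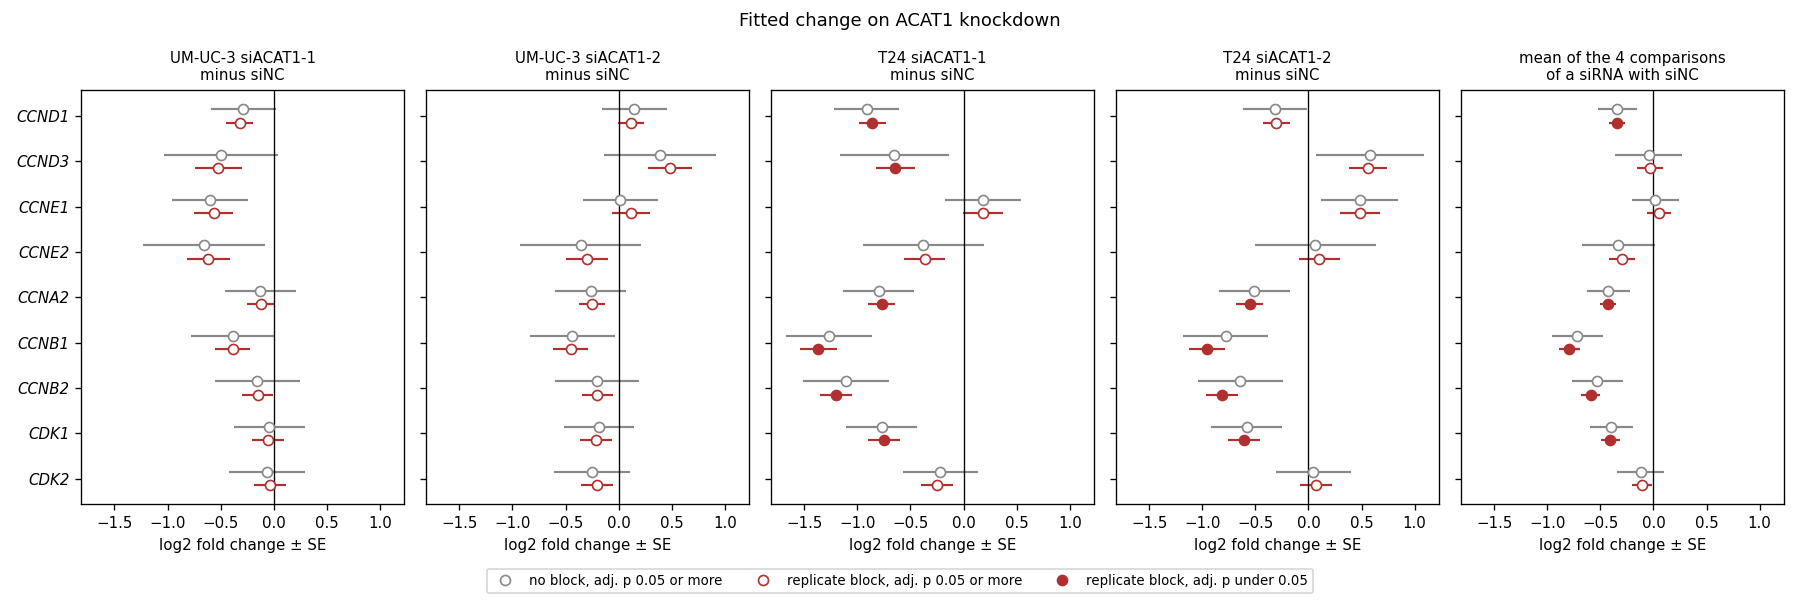
Fitted log2 fold change with its standard error (horizontal bars) for 9 genes in the 4 comparisons with siNC and in their mean, by group (grey) and with the replicate block (red), filled where the adjusted p was under 0.05. CCND2 is left out because of its near-zero counts in T24 cells. The estimates of the 2 fits lie close together, and the bars of the block fit are shorter.

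Cyclin B1, the regulatory partner of CDK1 at entry into mitosis, had the largest fold change of the 10 genes in the mean of the 4 comparisons. In T24 cells it was at 77.6, 53.6 and 76.9 RPKM with siNC in replicates 1, 2 and 3, at 28.2, 16.4 and 41.1 RPKM with siACAT1-1 and at 47.3, 15.7 and 55.5 RPKM with siACAT1-2. All 3 siACAT1-1 libraries lay below all 3 siNC libraries, whereas those with siACAT1-2 overlapped siNC, since replicate 3 with siACAT1-2 exceeded replicate 2 of siNC. The log2 fold change with siACAT1-1 was -1.27 ± 0.40 (SE) by group, with an adjusted p of 0.213, and -1.37 ± 0.17 with the block, with an adjusted p of 7.2e-05. Without the libraries of replicate 2 the value by group was -1.18 and was called (adjusted p 0.0284). With siACAT1-2 it was -0.78 ± 0.40 by group, with an adjusted p of 0.637, and -0.96 ± 0.17 with the block, with an adjusted p of 0.0014. In UM-UC-3 cells it was at 67.1, 67.4 and 48.9 RPKM with siNC, at 50.4, 54.3 and 36.1 RPKM with siACAT1-1 and at 53.8, 51.6 and 33.7 RPKM with siACAT1-2. Each of these siACAT1 libraries was lower than the siNC library of its own number, and the groups overlapped because replicate 3 was low in every group. The values of -0.39 ± 0.17 and -0.45 ± 0.17 with the block were not called, with adjusted p values of 0.214 and 0.214. Over all 4 comparisons the log2 fold change was -0.72 ± 0.24 by group, with an adjusted p of 0.276, and -0.79 ± 0.10 with the block, with an adjusted p of 4.8e-05, or 0.578 times the siNC level.

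Cyclin B2, the other B-type cyclin, was called in the same comparisons with siNC as cyclin B1. In T24 cells it was at 31.6, 18.8 and 32.2 RPKM with siNC, at 14.2, 6.46 and 17.3 RPKM with siACAT1-1 and at 21.2, 6.43 and 24.2 RPKM with siACAT1-2. The siACAT1-1 group lay wholly below siNC, and the siACAT1-2 group overlapped it. With the block the log2 fold changes were -1.20 ± 0.15 (adjusted p 7.7e-05) and -0.81 ± 0.15 (adjusted p 0.0020), and by group -1.11 ± 0.41 (adjusted p 0.287) and -0.64 ± 0.40 (adjusted p 0.739). Without the libraries of replicate 2 the value by group with siACAT1-1 was -1.04 and was called (adjusted p 0.0050). In UM-UC-3 cells it was at 95.4, 94.6 and 80.6 RPKM with siNC, at 87.1, 81.3 and 75.0 RPKM with siACAT1-1 and at 90.3, 77.4 and 74.0 RPKM with siACAT1-2. These 9 libraries spanned a narrow range, and the log2 fold changes of -0.15 ± 0.15 and -0.20 ± 0.15 with the block were not called. The mean over the 4 comparisons was -0.53 ± 0.24 by group, with an adjusted p of 0.439, and -0.59 ± 0.09 with the block, with an adjusted p of 2.5e-04.

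Cyclin A2, the partner of CDK2 and CDK1 in DNA synthesis and before mitosis, was lower than its paired siNC library in every pair of both lines. In T24 cells it was at 26.6, 16.2 and 18.2 RPKM with siNC, at 14.1, 9.67 and 11.2 RPKM with siACAT1-1 and at 19.8, 8.77 and 13.4 RPKM with siACAT1-2. The siACAT1-1 libraries lay below siNC without overlap, and replicate 1 with siACAT1-2 lay inside the siNC range. With the block the log2 fold changes were -0.77 ± 0.13 (adjusted p 6.3e-04) and -0.55 ± 0.13 (adjusted p 0.0096), and by group -0.80 ± 0.34 (adjusted p 0.362) and -0.51 ± 0.33 (adjusted p 0.753). Without the T24 libraries of replicate 2, the value for siACAT1-2 was -0.43 and was not called with the block (adjusted p 0.0519). In UM-UC-3 cells the 9 libraries ranged from 17.3 to 33.7 RPKM, with log2 fold changes of -0.12 ± 0.13 and -0.25 ± 0.13 that were not called. Over the 4 comparisons it was -0.42 ± 0.20 by group (adjusted p 0.458) and -0.42 ± 0.08 with the block (adjusted p 0.0012).

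CDK1, the kinase that drives entry into mitosis, was called in T24 cells with the block. There it was at 32.6, 25.03 and 20.7 RPKM with siNC, at 18.1, 16.0 and 11.7 RPKM with siACAT1-1 and at 23.0, 11.3 and 16.9 RPKM with siACAT1-2. Every siACAT1-1 library was below every siNC library, and the siACAT1-2 group overlapped siNC. The log2 fold changes were -0.75 ± 0.15 (adjusted p 0.0027) and -0.60 ± 0.15 (adjusted p 0.0163) with the block, and -0.77 ± 0.33 (adjusted p 0.375) and -0.58 ± 0.33 (adjusted p 0.694) by group. Without the T24 libraries of replicate 1 the block called neither, at -0.69 (adjusted p 0.0532) and -0.68 (adjusted p 0.0678), and without those of replicate 2 the value for siACAT1-2 was -0.39 (adjusted p 0.0652). In UM-UC-3 cells CDK1 was at 18.3, 23.1 and 14.2 RPKM with siNC, at 18.5, 22.9 and 12.6 RPKM with siACAT1-1 and at 19.1, 20.5 and 10.7 RPKM with siACAT1-2. Replicate 3 was the lowest and replicate 2 the highest with each siRNA, and neither siRNA was called, at -0.06 ± 0.15 and -0.21 ± 0.15 with the block. Over the 4 comparisons CDK1 was at -0.40 ± 0.20 by group (adjusted p 0.503) and -0.41 ± 0.09 with the block (adjusted p 0.0058), which was -0.36 (adjusted p 0.0506) without the UM-UC-3 libraries of replicate 3.

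**Figure D3:**
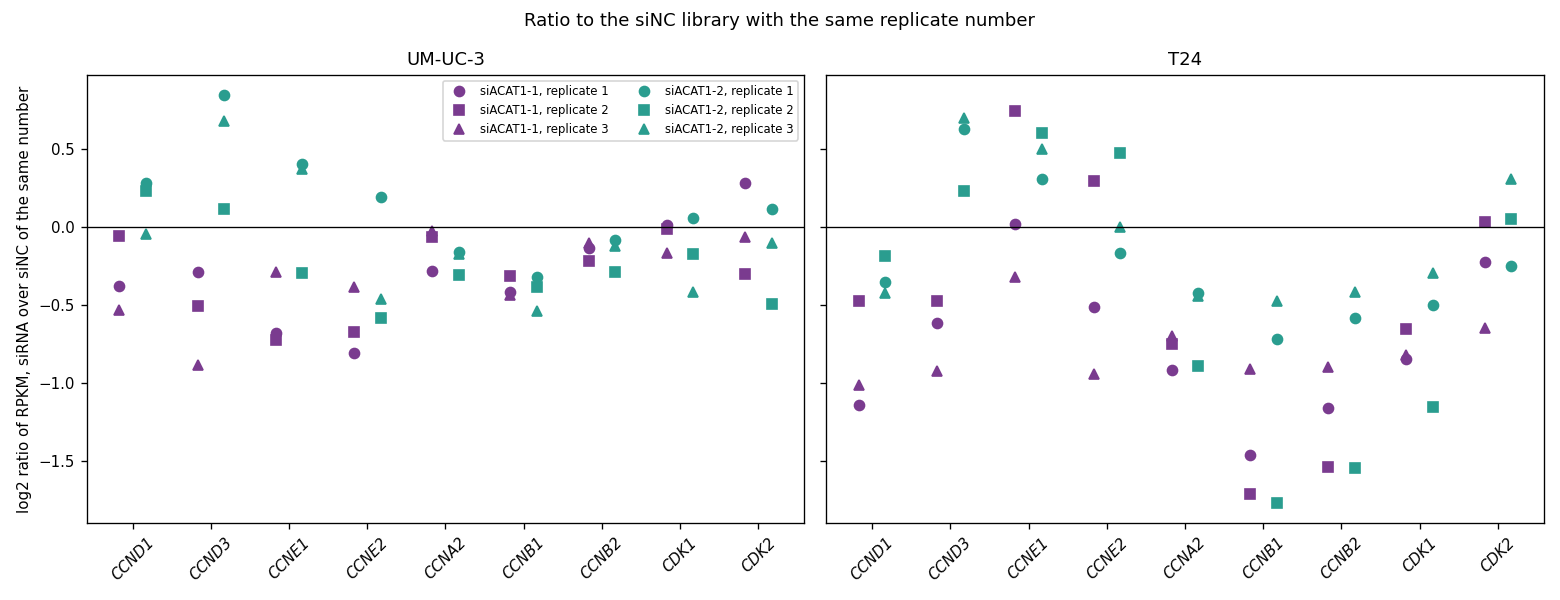
Log2 ratio of RPKM in each siACAT1 library to the siNC library with the same replicate number (vertical axis) for 9 genes in UM-UC-3 and T24 cells, with colour for the siRNA and shape for the number. All 12 ratios of CCNA2, CCNB1 and CCNB2 lie below 0, and those of CCND3 lie below 0 with siACAT1-1 and above 0 with siACAT1-2 in both lines.

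CDK2, the kinase partner of cyclins E and A, was not called in any comparison with siNC. It ranged from 11.4 to 31.5 RPKM in UM-UC-3 cells and from 15.1 to 32.3 RPKM in T24 cells, and was below its paired siNC library in 7 of 12 pairs. Over the 4 comparisons the log2 fold change was -0.11 ± 0.09 with the block (adjusted p 0.507). Reads for CDK2 are uncertain: all 565 exon bases of RP11-973D8.4, on the opposite strand, lie inside CDK2 exons, and the count of that gene was 85.4% to 91.6% of the CDK2 count in every library. The strand setting of the counting is not given in the sources used here, so reads of the 2 genes cannot be told apart in these tables.

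Among the D-type cyclins, which open the cycle, CCND1 supplied most of the transcript. It made up 82.5% to 95.6% of the summed D-type RPKM in UM-UC-3 libraries and 96.7% to 98.9% in T24 libraries. CCND1, which encodes cyclin D1, was at 122, 72.4 and 125 RPKM with siNC in T24 cells, at 55.7, 52.1 and 62.1 RPKM with siACAT1-1 and at 96.2, 63.8 and 93.6 RPKM with siACAT1-2. The siACAT1-1 libraries were all lower than siNC and tight among themselves. The log2 fold change with siACAT1-1 was -0.91 ± 0.31 by group (adjusted p 0.245) and -0.86 ± 0.13 with the block (adjusted p 2.9e-04), and with siACAT1-2 it was -0.30 ± 0.13 with the block (adjusted p 0.152). In UM-UC-3 cells CCND1 was at 103.6, 101.6 and 71.7 RPKM with siNC, at 79.8, 97.6 and 49.6 RPKM with siACAT1-1 and at 126, 119 and 69.4 RPKM with siACAT1-2. The siACAT1-2 libraries of replicates 1 and 2 were the highest of that line, and neither siRNA was called, at -0.32 ± 0.13 and 0.12 ± 0.13 with the block. The mean over the 4 comparisons was -0.34 ± 0.18 by group (adjusted p 0.531) and -0.34 ± 0.08 with the block (adjusted p 0.0058), which was -0.29 (adjusted p 0.0586) without the UM-UC-3 libraries of replicate 3.

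CCND3, the gene of cyclin D3, was low in both lines and took opposite directions with the 2 siRNAs. In T24 cells it was at 2.11, 1.33 and 1.45 RPKM with siNC, at 1.38, 0.960 and 0.767 RPKM with siACAT1-1 and at 3.27, 1.57 and 2.36 RPKM with siACAT1-2. Levels were lower in UM-UC-3 cells, at 0.403, 0.902 and 0.257 RPKM with siNC, at 0.330, 0.635 and 0.139 RPKM with siACAT1-1 and at 0.724, 0.980 and 0.411 RPKM with siACAT1-2. Each siACAT1-1 library was below its paired siNC library and each siACAT1-2 library above it, in 6 of 6 pairs for each siRNA, while the groups overlapped siNC in both lines. Counts were 24 to 168 in UM-UC-3 and 112 to 552 in T24 libraries. With the block the log2 fold change with siACAT1-1 in T24 cells was -0.64 ± 0.19 (adjusted p 0.0248), which was not called without the libraries of replicate 1 (adjusted p 0.168) or replicate 3 (adjusted p 0.210), and by group it was -0.65 ± 0.51 (adjusted p 0.682). With siACAT1-2 in T24 cells it was 0.56 ± 0.18 with the block (adjusted p 0.0588), and 0.67 without the libraries of replicate 2, which was called (adjusted p 0.0367). In UM-UC-3 cells neither siRNA was called with the block, at -0.52 ± 0.22 (adjusted p 0.20) with siACAT1-1 and 0.48 ± 0.21 (adjusted p 0.30) with siACAT1-2.

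CCND2, the gene of cyclin D2, was a transcript of UM-UC-3 cells: it was counted 934 to 2210 times per library there and 0 to 6 times in T24 libraries. In UM-UC-3 cells it was at 6.29, 4.37 and 8.25 RPKM with siNC, at 9.37, 5.60 and 10.4 RPKM with siACAT1-1 and at 5.64, 4.55 and 8.62 RPKM with siACAT1-2. It was above siNC in 3 of 3 pairs with siACAT1-1, but the groups overlapped and the log2 fold change of 0.42 ± 0.14 with the block was not called (adjusted p 0.115).

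**Figure D4:**
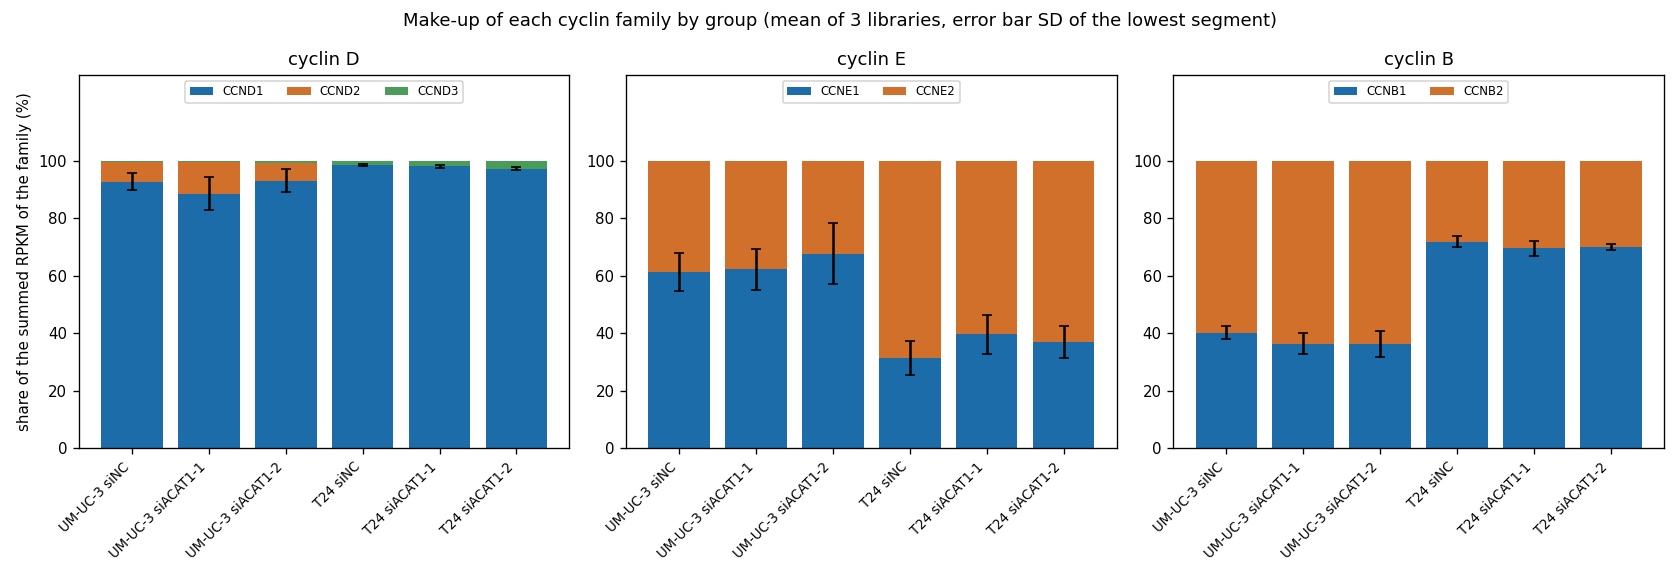
Share of each gene in the summed RPKM of its cyclin family (percent, mean of 3 libraries per group, error bars SD of the lowest segment). The make-up differs between UM-UC-3 and T24 cells in each family: CCNB1 takes 31.3% to 41.6% of B-type RPKM in UM-UC-3 libraries and 66.6% to 74.1% in T24 libraries.

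The E-type cyclins, which act with CDK2 at the start of DNA synthesis, were not called in any comparison with siNC. CCNE1 ranged from 2.92 to 10.5 RPKM in UM-UC-3 cells and from 2.40 to 4.23 RPKM in T24 cells. With siACAT1-2 in T24 cells it was at 3.85, 3.83 and 4.23 RPKM, above the siNC values of 3.10, 2.52 and 2.99 RPKM without overlap, and the log2 fold change of 0.49 ± 0.19 with the block had an adjusted p of 0.122. CCNE2 ranged from 1.33 to 7.75 RPKM in UM-UC-3 cells and from 2.97 to 9.55 RPKM in T24 cells, and over the 4 comparisons it was at -0.30 ± 0.12 with the block (adjusted p 0.116). Without the T24 libraries of replicate 2 that value was -0.42 and was called (adjusted p 0.0140), as was the value for siACAT1-1 in T24 cells, -0.73 (adjusted p 0.0154). Reads for CCNE2 are uncertain too, since 37.0% of its exon bases overlap INTS8 on the opposite strand, and the count of INTS8 was 112% to 425% of that of CCNE2. CCNA2 shares 9.08% of its exon bases with EXOSC9 and CCND1 10.3% with ORAOV1, both on the opposite strand.

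The 2 siRNAs were compared over both lines as siACAT1-2 minus siACAT1-1. By group 0 of 10 genes were called, where 2.56% of all genes were, with 3 of the 10 and 16.7% of all genes at an unadjusted p under 0.05 and 0 of the 10 called by DESeq2. With the block 4 were called, where 20.6% of all genes were: CCND3, CCND1 and CCNE1 were higher and CCND2 was lower with siACAT1-2. For CCND3 the difference was 1.10 ± 0.14 with the block (adjusted p 2.5e-05) and 1.06 ± 0.37 by group (adjusted p 0.141), with siACAT1-2 above siACAT1-1 in 6 of 6 pairs. For CCND1 it was 0.50 ± 0.09 with the block (adjusted p 6.2e-04) and 0.52 ± 0.22 by group (adjusted p 0.228), also in 6 of 6 pairs. For CCNE1 it was 0.49 ± 0.13 with the block (adjusted p 0.0114), in 5 of 6 pairs, and it was not called without the replicate 1 libraries of UM-UC-3 cells (adjusted p 0.0873) or of T24 cells (adjusted p 0.0502) or without the replicate 3 libraries of T24 cells (adjusted p 0.0732). For CCND2 the fitted difference of -1.61 ± 0.41 with the block (adjusted p 0.0086) averages UM-UC-3 cells with T24 cells, where it rests on counts of 4, 4 and 6 against 0, 0 and 2. For the late-phase genes the siRNAs differed by 0.17 ± 0.12 (CCNB1), 0.17 ± 0.10 (CCNB2), 0.04 ± 0.09 (CCNA2) and -0.00 ± 0.11 (CDK1) with the block, and none of these was called. Leaving out replicate 2 of T24, the block called CCNB1 (0.27, adjusted p 0.0328), CCNB2 (0.25, adjusted p 0.0251) and CCNE2 (0.49, adjusted p 0.0114), and without the UM-UC-3 libraries of replicate 3 it called CCNE2 (0.49, adjusted p 0.0444). ACAT1 was itself lower with siACAT1-2 than with siACAT1-1, by group at -0.62 ± 0.15 (adjusted p 0.0340).

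Between the lines without knockdown (UM-UC-3 siNC minus T24 siNC), 4 of 10 genes were called by group, 3 higher and 1 lower in UM-UC-3 cells, where 44.3% of all genes were called. CCND2 was counted 1003 to 1824 times in UM-UC-3 and 6, 0 and 2 times in T24 siNC libraries (fitted log2 difference 8.97 ± 0.56, adjusted p 2.8e-09), a value that depends on the few T24 reads. CCNB2 was at 80.6 to 95.4 RPKM against 18.8 to 32.2 RPKM, a difference of 1.75 ± 0.41 (adjusted p 0.0024). CCNE1 was at 4.08 to 10.5 RPKM against 2.52 to 3.10 RPKM, a difference of 1.20 ± 0.36 (adjusted p 0.0123). It was 0.63 (adjusted p 0.137) without UM-UC-3 siNC replicate 2 and 1.05 (adjusted p 0.0549) without T24 siNC replicate 2. CCND3 was at 0.257 to 0.902 RPKM against 1.33 to 2.11 RPKM, a difference of -1.61 ± 0.53 (adjusted p 0.0204). It was not called without UM-UC-3 siNC replicate 1 (adjusted p 0.0763) or replicate 3 (adjusted p 0.0891) or without T24 siNC replicate 1 (adjusted p 0.0772). Replicate numbers do not pair libraries across lines, so no blocked value is given here.

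The levels also stood in another order in each line. In UM-UC-3 siNC libraries the means ran from CCND1 (92.3 ± 17.9 RPKM, SD, n = 3) and CCNB2 (90.2 ± 8.33 RPKM), which overlapped, through CCNB1 (61.1 ± 10.6 RPKM) to CCNA2, CDK2 and CDK1 (27.0 ± 7.13, 20.8 ± 9.82 and 18.5 ± 4.45 RPKM), whose neighbours overlapped. CCNE1, CCND2 and CCNE2 (6.40 ± 3.53, 6.30 ± 1.94 and 4.35 ± 3.06 RPKM) overlapped in turn, and CCND3 was lowest (0.521 ± 0.339 RPKM). In T24 siNC libraries CCND1 (106.7 ± 29.8 RPKM) and CCNB1 (69.4 ± 13.6 RPKM) overlapped at the top. CDK2, CCNB2, CDK1 and CCNA2 followed (28.0 ± 3.91, 27.5 ± 7.61, 26.1 ± 5.999 and 20.3 ± 5.49 RPKM), each overlapping the next. CCNE2 (6.64 ± 2.57 RPKM), CCNE1 (2.87 ± 0.309 RPKM) and CCND3 (1.63 ± 0.421 RPKM) came last before CCND2, with no overlap between neighbours. CCNE1 made up 56.6% to 79.9% of E-type RPKM in UM-UC-3 libraries and 24.5% to 44.7% in T24 libraries.

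The replicate number, whose meaning is given neither by the labels nor by the paper, accounted for much of the spread of these genes. Differences between numbers were called for 9 of 10 genes in UM-UC-3 cells (not CCNB2), where 24.6% of all genes were called, and for 8 of 10 in T24 cells (not CCND2 and CCNE1), where 43.9% were called. In UM-UC-3 cells the number took 58.6% to 92.7% of the variance of log2 CPM (counts scaled by library size) within the line, against 2.84% to 33.2% for the siRNA. Its share was above that of the siRNA for 10 of 10 genes there and for 4 of 10 in T24 cells. The same count was not made over all genes. The median share of the number over the 10 genes was 72.8% in UM-UC-3 and 41.5% in T24, against 38.4% and 44.4% over all genes tested. In T24 cells it was thus no larger for these genes than for all genes. The median share of the siRNA over the 10 genes was 22.1% in UM-UC-3 and 44.8% in T24, against 25.3% and 25.2% over all genes tested.

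The numbers ranked the genes in different ways. In UM-UC-3 cells replicate 3 was lowest with siNC and with both siRNAs for CCND1, CCND3, CCNE2, CCNA2, CCNB1, CCNB2, CDK1 and CDK2, and highest in all of these groups for CCND2. Replicate 2 was highest in all 3 groups for CCND3, CCNE1, CCNE2, CCNA2, CDK1 and CDK2. In T24 cells replicate 2 was lowest in all 3 groups for CCND1, CCNA2, CCNB1 and CCNB2, but not for CDK2, which was highest in that replicate in 2 of 3 groups. CCNB2 was 1.38 lower on the log2 CPM scale in T24 replicate 2 than in the mean of the other two numbers.

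**Figure D5:**
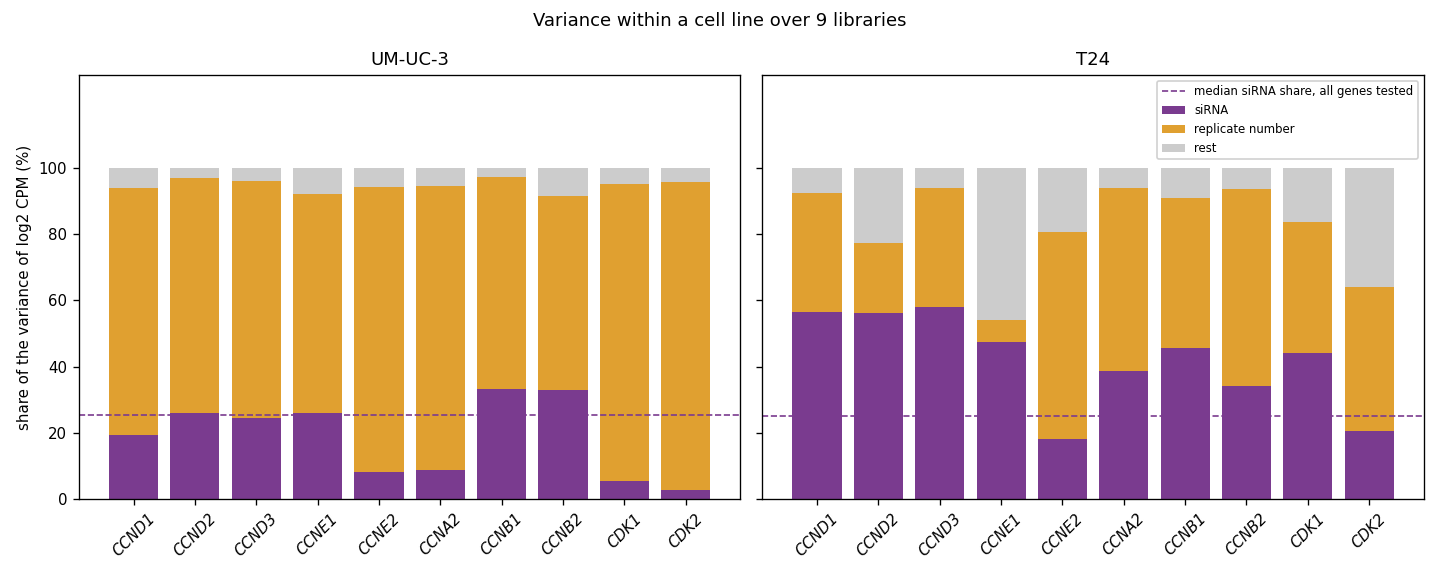
Share of the variance of log2 CPM within each cell line (percent, 9 libraries) taken by the siRNA, by the replicate number and by the rest, for the 10 genes, with the median siRNA share over all genes tested as a dashed line. The replicate number takes 58.6% or more for every gene in UM-UC-3 cells and 6.70% to 62.3% in T24 cells.

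Across the 18 libraries, each gene centred on its mean in each cell line, the late-phase genes CCNA2, CCNB1, CCNB2 and CDK1 correlated with each other at r from 0.61 to 0.96 (6 pairs, median 0.81), and the other 39 pairs of the 10 genes at r from -0.58 to 0.83 (median 0.43). CCNB1 and CCNB2 had the highest r of these, 0.96. Centred on each group, which removes the siRNA differences, the 6 pairs ran from 0.44 (CCNB2 with CDK1) to 0.95 (median 0.72), and the other 39 from -0.54 to 0.92 (median 0.56), with CCND3 at 0.92 with CCNE2 and 0.91 with CDK1. The late-phase pairs thus overlapped the other pairs under either centring. The libraries share replicate numbers and siRNAs, so these values are descriptions. Of genes outside the 10, those most like CCNB1 were DLGAP5 (r = 0.98), which encodes a mitotic spindle protein, CDKN3 (0.98) and RP11-229P13.22 (0.97). Those most like CCNB2 were CDKN3 (0.97), a phosphatase that acts on CDKs, CTD-2196E14.5 (0.97) and the mitotic kinase PLK1 (0.96). Of the exon bases of CTD-2196E14.5, 86.3% lie opposite those of PLK1. MAD2L1, of the spindle checkpoint, was the most like both CCNA2 (0.97) and CDK1 (0.94), and SKA3, of the kinetochore, was among the 3 most like both (0.94 and 0.93). HMGB1P10 (0.94 with CCNA2) is a pseudogene and DDX11 (0.93 with CDK1) a helicase gene.

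The D- and E-type cyclins and CDK2 had other neighbours. CCNE2 was most like TXNDC5 (0.94), PCNA (0.94), the sliding clamp of DNA replication, and MRPS7 (0.94). CCND1 was most like PKMYT1 (0.96), a kinase that inhibits CDK1, PAQR4 (0.96) and THY1 (0.95). PKMYT1 and PAQR4 overlap on opposite strands by 1233 exon bases. CCND3 was most like MFSD14B (0.94), GPRIN1 (0.93) and COX16 (0.92), CCNE1 was most like XYLT2 (0.85), DOLK (0.84) and PMP22 (0.84), and CCND2 was most like TTC37 (0.88), NBPF10 (0.87) and ATRX (0.86). CDK2 was most like the overlapping RP11-973D8.4 (1.00), then RFC2 (0.96), a subunit of the replication clamp loader, and FN3KRP (0.92).

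The other genes of the pathway were 82 genes in 7 lists. By group edgeR called 0 of them in each of the 4 comparisons and in their mean. At an unadjusted p under 0.05 there were 17 of the 82 in the mean, against 10.9% of all genes. DESeq2 by group called 2 of the 82 in the mean, where it called 315 of all 20144 genes. In T24 cells DESeq2 called 6 of the 82 with siACAT1-1, where it called 393 of all genes. With siACAT1-2 there it called 2, and fewer of all genes than in the mean. In UM-UC-3 cells it called 0 of the 82 with either siRNA, where it called 18 and 37 of all genes. With the block 24 of 82 (29.3%) were called in the mean of the 4 comparisons, 21 lower and 3 higher, against 12.4% of all genes. In T24 cells 5 were called higher and 23 lower with siACAT1-1 (34.1%, against 13.9% of all genes), and 1 higher and 13 lower with siACAT1-2 (17.1%, against 8.48%). In UM-UC-3 cells 2 were called higher and 3 lower with siACAT1-1 (6.10%, against 3.06%), and 0 higher and 2 lower with siACAT1-2 (2.44%, against 1.36%). Except where a group value is named, the values that follow are log2 fold changes in the mean of the 4 comparisons with the block. That mean covers unlike effects of the siRNAs for some genes. Of the 23 genes named from the lists by this mean, 4 (MNAT1, CCNG1, PKMYT1 and E2F1) were called different between the siRNAs with the block. By group 1 (MNAT1) was. Of all genes tested, 20.6% were called between the siRNAs with the block and 2.56% by group.

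Of 9 CDK partners, 3 were called, all lower: CKS1B at -0.55 ± 0.08 (adjusted p 1.5e-04), which helps CDKs hold substrates, its relative CKS2 at -0.35 ± 0.10 (adjusted p 0.0223) and MNAT1, of the CDK-activating kinase, at -0.40 ± 0.07 (adjusted p 9.6e-04). MNAT1 was called lower with siACAT1-2 only, at -0.66 ± 0.12 in UM-UC-3 and -0.95 ± 0.12 in T24, against 0.13 ± 0.12 and -0.11 ± 0.11 with siACAT1-1. The difference between the siRNAs was -0.80 ± 0.17 by group (adjusted p 0.0182) and -0.81 ± 0.08 with the block (adjusted p 1.9e-06). CDK6, a kinase partner of the D-type cyclins, was not called in the mean (-0.17 ± 0.09, adjusted p 0.220) and took opposite directions. Its RPKM in UM-UC-3 was 2.94 ± 0.196 (SD, n = 3) with siNC, 4.72 ± 1.09 with siACAT1-1 and 1.80 ± 0.210 with siACAT1-2, and in T24 1.99 ± 0.396, 2.54 ± 0.536 and 1.01 ± 0.112. With the block CDK6 was called higher with siACAT1-1 in UM-UC-3 (0.65 ± 0.14, adjusted p 0.0196) and lower with siACAT1-2 in UM-UC-3 (-0.77 ± 0.15, adjusted p 0.0085) and in T24 (-0.95 ± 0.15, adjusted p 5.7e-04), and by group it was called in none of these. The difference of CDK6 between the siRNAs was called in both fits, at -1.38 ± 0.16 by group (adjusted p 2.0e-04). CDK4, the other kinase partner of the D-type cyclins, was called in no comparison with siNC in either fit. Its RPKM in UM-UC-3 was 109.4 ± 7.12 (SD, n = 3) with siNC, 101.2 ± 8.01 with siACAT1-1 and 106.6 ± 0.927 with siACAT1-2. In T24 it was 93.2 ± 17.8, 81.1 ± 38.6 and 77.6 ± 21.3. CDK4 and CDK6 were named after their values were seen. Of 15 other cyclins, 3 were called, all lower. CCNA1, the second A-type cyclin, was at -1.56 ± 0.17 (adjusted p 1.4e-05), and its RPKM was 1.61 ± 0.754 (SD, n = 3) with siNC in T24 cells, 0.252 ± 0.246 with siACAT1-1 and 0.488 ± 0.266 with siACAT1-2. CCNF was at -0.52 ± 0.11 and CCNG1 at -0.31 ± 0.10. Of 8 CDK inhibitors, CDKN3 (-0.71 ± 0.09, adjusted p 4.8e-05) and CDKN2C (-0.60 ± 0.13, adjusted p 0.0042) were lower and CDKN1A, which encodes p21, was higher (0.60 ± 0.14, adjusted p 0.0098). CDKN1A was at 2.70 ± 0.157 RPKM with siNC in UM-UC-3 cells and at 5.07 ± 1.83 and 5.04 ± 0.333 RPKM with the siRNAs, and at 3.39 ± 3.46 RPKM with siNC in T24 cells and at 3.63 ± 3.85 and 3.82 ± 2.43 RPKM with the siRNAs. In T24 cells the SD exceeded the mean with siNC and with siACAT1-1.

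Of 9 genes of the phosphorylation switch that turns CDK1 on and off, 3 were called, all lower: AURKA at -0.71 ± 0.12, PKMYT1 at -0.56 ± 0.11 and PLK1 at -0.60 ± 0.14. AURKA and PLK1 encode kinases that favour CDK1 activation and PKMYT1 one that inhibits it. PKMYT1 was called only with siACAT1-1 in T24 (-1.28 ± 0.19), with -0.29 ± 0.18 for siACAT1-2 there, and the siRNAs differed by 0.79 ± 0.13 with the block (adjusted p 3.6e-04) and by 0.79 ± 0.33 by group (adjusted p 0.225). Of 13 RB and E2F genes, E2F1 (-0.51 ± 0.10, adjusted p 0.0018), E2F8 (-0.66 ± 0.13) and RBL1 (-0.34 ± 0.10) were lower and E2F6 was higher (0.25 ± 0.08, adjusted p 0.0418). Of 10 factors that act on CHR and CCAAT elements, FOXM1 (-0.55 ± 0.07, adjusted p 1.1e-04), RBBP4 (-0.28 ± 0.07) and NFYB (-0.22 ± 0.07) were lower. FOXM1 was at 14.3 ± 2.71 RPKM with siNC in T24 cells and at 7.14 ± 0.919 and 9.41 ± 2.71 RPKM with siACAT1-1 and siACAT1-2. Of 18 genes of cyclin destruction, 4 were lower: CDC20 (-0.77 ± 0.11, adjusted p 1.3e-04), an activator of the anaphase-promoting complex, UBE2C (-0.47 ± 0.11) and UBE2S (-0.35 ± 0.09), its ubiquitin-conjugating enzymes, and FBXO5 (-0.41 ± 0.10), its inhibitor. FBXW7, which marks cyclin E for destruction, was the 1 gene of that list called higher in this mean. Of the comparisons with siNC, it was called only with siACAT1-1 in T24 cells, with the block. Between the siRNAs it was called lower with siACAT1-2 in both fits. It was not among the 23 genes counted above.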

How the data were processed

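Stranded mRNA libraries from TRIzol-extracted RNA were sequenced on an Illumina instrument. Per the labels and the paper, the authors used Trimmomatic 0.36 to filter reads, STAR 2.5.3 to map what was left to GRCh38, and featureCounts (Subread 1.5.1) to count reads on exons. They deposited raw counts for 39496 genes and RPKM values calculated from these counts. Annotation release, strand setting, multi-mapped reads and use of the molecular identifiers are not given in the sources used here.

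The test was edgeR 4.0.16's quasi-likelihood F test (R 4.3.3), checked on simulated data. The simulated counts held no shared effect of the replicate number, so they could not check the block under such an effect. Their changes were larger than any fitted for the 10 genes against siNC. A single model held all 18 libraries and 6 group terms after TMM scaling, genes were filtered by filterByExpr, and p values were adjusted over 20144 genes by Benjamini-Hochberg. The replicate block, the scaling, the filter on low counts, DESeq2 1.42.0 and left-out libraries were alternatives. Deviations from group means correlated between same-numbered libraries within a line in all 18 pairs (r from 0.11 to 0.69), against -0.33 to 0.21 between lines. Within UM-UC-3, libraries of other numbers had r from -0.55 to 0.27, which overlapped the 0.11 to 0.58 of the same number. Within T24 the ranges were -0.57 to 0.21 and 0.36 to 0.69, without overlap. No source says what a number marks, and p values measure the spread between these libraries. The likeness of genes used log2 CPM (prior count 2). Replicate libraries differed by more than sampling noise. The 10 genes were taken by name. All 10 were named in the text, with the 3 genes most like each and, for each of 7 lists, up to 4 called genes with the smallest p. The genes and lists were chosen with earlier results of these data known, and so were the promoter motifs.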

Additional observations from a re-analysis of the deposited data

Results flagged for a closer look

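CCND3 took opposite directions with the 2 siRNAs in each cell line. In UM-UC-3 cells all 3 libraries with siACAT1-1 were below their paired siNC library and all 3 with siACAT1-2 above it, and the mean log2 ratios of RPKM differed by 1.11. In T24 cells the same held in 3 of 3 pairs per siRNA, with a difference of 1.19. Of the comparisons with siNC, only siACAT1-1 in T24 cells was called for CCND3, with the replicate block. The difference between the siRNAs was not tested in each line. Tested over both lines it was 1.06 (edgeR adjusted p 0.141) by group and 1.10 (adjusted p 2.5e-05) with the replicate block.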

How the results depend on the processing

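The replicate block changed the number of genes called most. It called 5 of the 10 genes against 0 by group in the mean of the 4 comparisons, 6 against 0 with siACAT1-1 and 4 against 0 with siACAT1-2 in T24 cells, 4 against 0 between the siRNAs and 8 against 4 between the siNC groups, although numbers do not pair libraries across lines. It changed 0 counts in UM-UC-3 cells. Over all genes tested it called 2500 against 45 in the mean of the 4 comparisons and 4141 against 515 between the siRNAs. In T24 cells it called 2799 against 25 with siACAT1-1 and 1708 against 54 with siACAT1-2. Between the siNC groups it called 12437 against 8924 of 20144 genes. Without a filter on low counts the fit by group called 2 genes in that mean, 5 with siACAT1-1 in T24 cells and 3 between the siRNAs, and the block called 2 and 1 with siACAT1-1 and siACAT1-2 in UM-UC-3 cells and 4 for the difference between the lines. With 1 library, or the 3 of 1 number and line, left out, the counts by group ran from 0 to 2 in the mean and from 0 to 2 with siACAT1-1 in T24 cells. With the block, leaving out those 3 libraries at a time, they ran from 3 to 6 in the mean, from 0 to 3 and from 0 to 1 with siACAT1-1 and siACAT1-2 in UM-UC-3 cells, from 4 to 7 and from 3 to 4 in T24 cells, from 0 to 2 for the difference between the lines and from 3 to 7 between the siRNAs. The fit by group ran from 3 to 4 between the siNC groups. Except with siACAT1-2 in T24 cells and between the siNC groups, each highest count named here came without the T24 libraries of replicate 2. The cause was not tested. For the fits without a filter or with libraries left out, the share over all genes is not given here. Their counts cannot be set against it. DESeq2 size factors and upper quartile scaling kept every count within 1.5 times, and DESeq2 called 315 genes in the mean against 45. No called value changed sign under any setting run. A change of sign of a value that was not called was counted as moved: of 2358 fold changes by group 102 moved, 37 became called and 9 were no longer called. Where a left-out library leaves 2 in a group, precision is limited by their number.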
